A study of Mus musculus with 20 samples.

Results

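The genes described here encode proteins of the presynaptic vesicle and of its release machinery, 39 genes chosen by gene symbol for their known place in the nerve terminal. All 39 were found among the 18193 genes that the array names with a single symbol, and they carry 100 of the 45037 probe sets tested. In 10 of the genes the array has 1 probe set and in 29 it has several, so that each of those 29 has a brightest probe set, defined as the one with the highest mean log2 signal over all arrays, and together they have 61 dimmer ones. A further probe set that names Vamp1 together with other symbols was left out.

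HDAC4 is a class IIa histone deacetylase that acts as a repressor of transcription by binding factors such as MEF2, and the comparison asked whether the mRNAs of presynaptic proteins differ in its absence. Total RNA of whole brains at postnatal day 3 was measured in 10 WT and 10 HDAC4 KO pups, 5 of each sex per genotype by the labels, 1 brain per array. Every pup was untreated, was 3 days old and was on the B6CBAF1/OlaHsd background, and the WT animals were littermates of the knock-outs. The HDAC4 KO pups were homozygotes bred from heterozygous parents, so the gene was missing in every cell type and throughout development. Whole brain mixes neurons with glia, vessels and blood, and in such RNA fewer cells of a type and less RNA per cell cannot be told apart.

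At the nerve terminal, synaptic vesicles are filled with transmitter by vesicular transporters, held near the active zone by synapsins and by scaffolds such as Bassoon and Piccolo, and primed by RIM and Munc13 proteins. The SNARE proteins syntaxin, SNAP-25 and synaptobrevin then pull vesicle and plasma membrane together, synaptotagmin triggers fusion when calcium enters, and NSF with its SNAP adaptors takes the complexes apart again. Dynamin and amphiphysin act in the retrieval of vesicle membrane. In the mouse brain at birth most of these proteins are already made, while synapses are still being formed.

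Promoter sequence of these genes was read from RefSeq (GRCm38.p6) as windows of 250 bases before to 50 bases after a start site. Of the 39 genes, 31 had 42 such windows, and 8 (Syt5, Rims2, Sytl2, Syt4, Snap25, Vamp2, Syn3 and Nrxn2) had none. Both strands were searched for CTANNNNTAG, a loose form of the core of the MEF2 site, because MEF2 is the best-known partner of HDAC4. It allows any base at N, where the site itself has A or T. It stood in 2 of the 42 windows (4.76%), against 3.69% of all 32851 windows. The windows with it belong to Dnm1 (chr2:32353280-32353579, minus strand) and Slc32a1 (chr2:158610508-158610807, plus strand). They are shown beside those of Slc17a6 (chr7:51621580-51621879, plus strand, 1 of its 2 windows) and Rab3c (chr13:110280157-110280456, minus strand), genes whose dimmer probe sets carry the differences described further on. Capitals mark the loose pattern, and sequences run 5′ to 3′ on the strand of the gene. Both marked stretches hold G or C at N, so neither is a full MEF2 core.
Dnm1: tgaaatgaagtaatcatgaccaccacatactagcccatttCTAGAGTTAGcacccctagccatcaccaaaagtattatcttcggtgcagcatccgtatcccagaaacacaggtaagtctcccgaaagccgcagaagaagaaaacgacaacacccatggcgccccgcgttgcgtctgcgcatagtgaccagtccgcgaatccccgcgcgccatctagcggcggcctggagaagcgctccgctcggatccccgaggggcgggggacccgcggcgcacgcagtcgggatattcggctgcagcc
Slc32a1: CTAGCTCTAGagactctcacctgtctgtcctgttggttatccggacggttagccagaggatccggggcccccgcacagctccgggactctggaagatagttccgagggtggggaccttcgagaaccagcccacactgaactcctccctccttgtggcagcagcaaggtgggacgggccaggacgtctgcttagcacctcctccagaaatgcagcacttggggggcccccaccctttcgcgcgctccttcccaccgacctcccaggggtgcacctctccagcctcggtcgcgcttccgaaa
Slc17a6: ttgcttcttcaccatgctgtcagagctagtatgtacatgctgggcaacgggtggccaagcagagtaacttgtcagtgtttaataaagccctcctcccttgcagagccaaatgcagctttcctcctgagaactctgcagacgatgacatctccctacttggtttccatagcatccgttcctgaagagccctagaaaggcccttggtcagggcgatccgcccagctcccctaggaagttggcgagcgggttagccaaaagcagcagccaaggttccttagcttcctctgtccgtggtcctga
Rab3c: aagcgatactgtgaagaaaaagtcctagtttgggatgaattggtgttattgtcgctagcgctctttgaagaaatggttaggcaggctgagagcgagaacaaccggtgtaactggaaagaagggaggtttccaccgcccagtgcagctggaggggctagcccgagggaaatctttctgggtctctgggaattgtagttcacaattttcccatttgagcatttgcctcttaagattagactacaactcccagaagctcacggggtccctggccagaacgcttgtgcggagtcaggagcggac
In Dnm1 the first base of the match lay at −210 relative to the start site, and in Slc32a1 at −250. The letters of the cyclic AMP response element, TGACGTCA, which cannot overlap that pattern, stood in the windows of Napa (at −7) and Syn1 (at −159), also 2 of 42 (4.76%), against 1.79% of all windows. No probe set of these 4 genes was lower or higher at the threshold used below, and a match describes letters in the window, not a site in use. Of the 39 genes, only Rims1 lies on the chromosome that carries Hdac4.

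Values are log2 signals as deposited, and a log2 fold change is the HDAC4 KO mean minus the WT mean. Differences were tested with limma over all 45037 probe sets, and a probe set is called higher or lower at an adjusted p under 0.05. Median log2 signals per array were alike, from 6.26 to 6.32. Hdac4 itself was at 7.54 to 8.08 in WT and at 6.02 to 7.43 in HDAC4 KO arrays (log2 fold change −1.39, SE 0.12, adjusted p = 6.28e-07), and all 3 of its probe sets were lower. The arrays labelled WT 8 and HDAC4 KO 10 lay closest to the other genotype, at 7.54 and 7.43. WT 8 was near the next WT array (7.77), while the HDAC4 KO arrays other than HDAC4 KO 10 were at 6.59 or below. In WT 5 and WT 9 both sex-linked genes looked at, Xist and Kdm5d, went against the label. HDAC4 KO 10, labelled male, had a high log2 signal of both (12.27 for Xist and 6.88 for Kdm5d), so that it carried signal of either sex besides its intermediate Hdac4 level. The 4 arrays called in doubt below are WT 5, WT 8, WT 9 and HDAC4 KO 10, WT 8 only as the lowest WT array for Hdac4. The difference between 3′ and 5′ probe sets of the actin and Gapdh controls, a measure of RNA integrity and labelling, had a log2 value of 0.19 ± 0.03 in the WT and 0.22 ± 0.03 in the HDAC4 KO arrays (SD, n = 10 each), with its highest value, 0.26, in HDAC4 KO 10. All 10 neuronal markers were above the array median, and Nefl was the only one called, as lower. Ttr of the choroid plexus was lower too, while no marker of the other 8 lists was called, and the 4 skeletal muscle genes had a mean log2 signal of 5.83 to 6.08, below the array median.

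Most presynaptic mRNAs were well above the array median in the P3 brain and differed little between genotypes. At the brightest probe set, 38 of the 39 genes exceeded the median of the array in 10 or more of the arrays, and Sv2c was the exception. Of the 39, 1 was called (2.56%), Sytl2 as higher, and 0 were lower, while 1.96% of all 18193 genes were called at their brightest probe set. At an unadjusted p under 0.05, 12 of the 39 were higher (30.8%) and 2 lower (5.13%), against 12.8% and 6.19% of all genes. The log2 fold changes of the 39 ran from −0.13 in Syn2 to 0.33 in Slc17a7 with a median of 0.07, against a median of 0.01 over all genes. Small positive values were the more frequent, in 29 of 39 members (74.4%) and in 57.2% of all genes. All genes were read from the same arrays, so these are not separate changes. At the brightest probe sets of Stx1a, Sv2b, Dnm1, Slc17a7 and Syt1, HDAC4 KO 7, HDAC4 KO 8 and HDAC4 KO 10 were the highest of their group, while in Pclo they were not. The median stayed between 0.05 and 0.08 over 34 other ways of scaling, fitting or leaving out arrays. In 35 of the 39 genes the 95% interval of the change lay inside a ratio of 1.2 either way, and in Syn2, Sv2b, Sytl2 and Slc17a7 it reached further.

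Over all 100 probe sets, 1 was higher and 5 were lower, where 1.05% of all probe sets were called higher and 1.01% lower. At an unadjusted p under 0.05 the counts were 21 higher and 13 lower, and 10.8% and 8.77% of all probe sets with 1 symbol were higher and lower by that measure. The 5 lower ones belong to Slc17a6, Rab3c, Snap29 and Syt1, and every one of them was a dimmer probe set of a gene whose brightest probe set was not called.

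**Figure D1:**
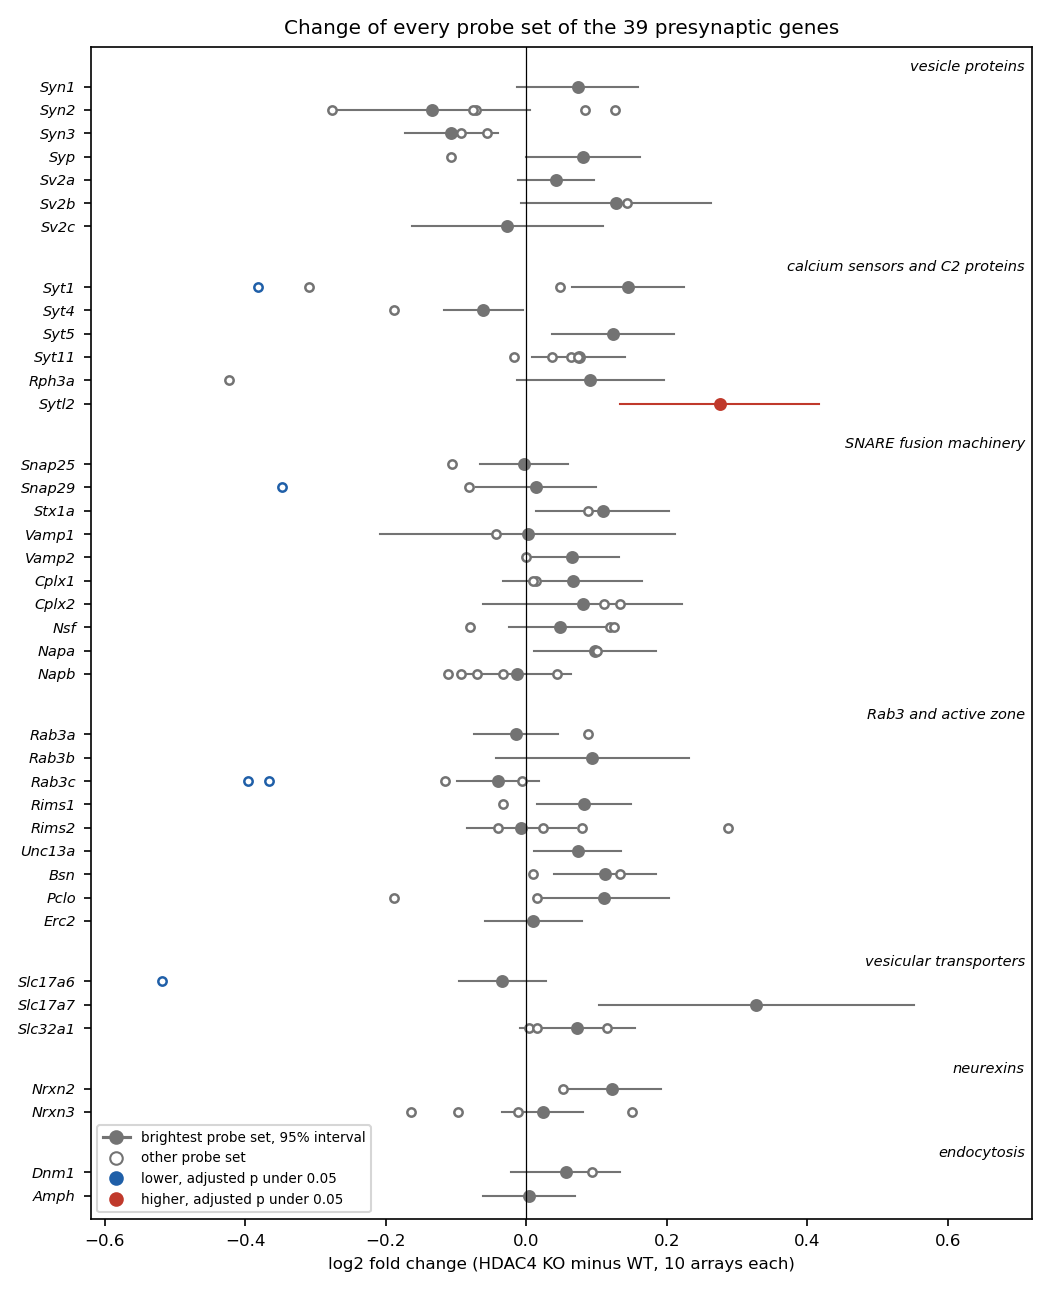
Log2 fold change (HDAC4 KO minus WT, 10 arrays each) of all 100 probe sets of the 39 genes, grouped by role, with filled points for the brightest probe set and its 95% interval and open points for the others. Blue points (5 probe sets) are lower and the red point (Sytl2) is higher at an adjusted p under 0.05. The blue open points of Slc17a6, Rab3c, Snap29 and Syt1, at −0.52 to −0.35, lie to the left of the filled points of these genes. Other open points of Rab3c and Snap29, and that of Syt1 at 0.05, lie closer to the filled ones. The grey open point of Syt1 at −0.31 also lies to the left.

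Among the vesicle proteins (7 genes, 16 probe sets) none was called. Synaptophysin (Syp), the most widely used marker of vesicles, ran from 10.80 to 11.02 (median 10.88) in WT and from 10.85 to 11.14 (median 10.94) in HDAC4 KO arrays, which differ by 0.08 (log2; SE 0.04, adjusted p = 0.281). The groups overlapped, although 9 of 10 HDAC4 KO arrays were above the WT mean. The synapsins, which tie vesicles to the cytoskeleton, went different ways at their brightest probe sets, with 0.07 in Syn1 (adjusted p = 0.365), −0.13 in Syn2 (adjusted p = 0.299) and −0.11 in Syn3 (adjusted p = 0.0788). The Syn2 value rested on HDAC4 KO 9 and 10, at 10.48 and 10.65 where the other HDAC4 KO arrays had 10.95 to 11.16, and it was −0.08 without HDAC4 KO 9 and −0.03 without numbers 9 and 10 of both genotypes. Of the dimmer Syn2 probe sets, 1428460_at stood at 0.13 (adjusted p = 0.164) and 1449030_at at −0.28 (adjusted p = 0.127). The remaining ones ran from −0.08 to 0.08. The change of 1428460_at differed from that of the brightest by 0.26, which did not pass (adjusted p = 0.0561). Syn3 ran from 10.24 to 10.46 in WT and from 10.12 to 10.31 in HDAC4 KO arrays, and all 10 HDAC4 KO arrays were below the WT mean. It passed in 4 of 34 alternative settings, among them the one that leaves dim probe sets out. Sv2a and Sv2b, glycoproteins of the vesicle membrane, had log2 fold changes of 0.04 and 0.13 (adjusted p = 0.414 and 0.306), and Sv2c, at a signal of 4.27 in WT, had −0.03 (adjusted p = 0.883).

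Of the calcium sensors and related C2-domain proteins (6 genes, 15 probe sets), Sytl2 was higher and 1 probe set of Syt1 was lower. Sytl2, which binds Rab27 and links vesicles to the plasma membrane, ran from 7.24 to 7.77 with a median of 7.52 in WT, and from 7.44 to 8.03 with a median of 7.82 in HDAC4 KO arrays. Its change of 0.28 on the log2 scale passed (SE 0.07, adjusted p = 0.0408), and 7 of 10 HDAC4 KO arrays were above the highest WT array while HDAC4 KO 2 and 3 were the lowest of their group. Its call was lost without any one of WT 1 to 8 and of HDAC4 KO 5 to 10 (adjusted p up to 0.0802, log2 fold change 0.24 to 0.31 over all single arrays left out). Without the 4 arrays in doubt it was 0.28 (adjusted p = 0.0828), and the call was also lost with the methods' t-test (adjusted p = 0.0523). The study's Taqman quantitative PCR found Sytl2 unchanged between genotypes.

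Syt1, the sensor of fast synchronous release, was measured by 4 probe sets that did not move together. At the brightest, 1433884_at, signals were 12.17, 12.23 and 12.30 (lowest, median and highest) in WT and 12.25, 12.37 and 12.52 in HDAC4 KO arrays. All 10 HDAC4 KO arrays were above the WT mean and 7 were above the highest WT array, with a log2 fold change of 0.14 (SE 0.04) and an adjusted p of 0.0504 that passed in 8 of 34 alternatives. At 1431191_a_at signals were 8.55, 8.73 and 9.13 in WT and 7.91, 8.40 and 8.73 in HDAC4 KO arrays, which is a change of −0.38 (log2; SE 0.09, adjusted p = 0.0310). The groups overlapped, and the lowest HDAC4 KO arrays were numbers 9 and 10, at −0.83 and −0.70 relative to the WT mean. At 1421990_at the difference was −0.31 (adjusted p = 0.0782), with HDAC4 KO 9 again lowest, and at 1438282_at it was 0.05. The study's quantitative PCR found Syt1 unchanged. The other genes of this class were not called. Syt5 and Syt11 stood at 0.12 and 0.07 with all 10 HDAC4 KO arrays above the WT mean (adjusted p = 0.114 and 0.214), and Syt4 at −0.06 (adjusted p = 0.234). Rph3a, a Rab3 effector, had 0.09 at its brightest probe set (adjusted p = 0.353) and −0.42 at its dimmer one (adjusted p = 0.0794), where HDAC4 KO signals spread from 6.47 to 7.92 around WT signals of 7.37 to 7.82.

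The SNARE fusion machinery (10 genes, 29 probe sets) had 1 lower probe set, of Snap29. The SNAREs of release themselves were not called. Snap25 had a log2 fold change of 0.00 (95% interval −0.06 to 0.06, adjusted p = 0.977), from 12.66 to 12.83 in WT and from 12.69 to 12.90 in HDAC4 KO arrays. Vamp2, or synaptobrevin 2, had 0.07 (adjusted p = 0.280) and Stx1a, or syntaxin 1A, 0.11 (adjusted p = 0.204), both with overlapping groups. Vamp1 had 0.00 with the widest spread among WT arrays of all the brightest probe sets (SD 0.31, n = 10). The complexins, which clamp and assist fusion, stood at 0.07 (Cplx1) and 0.08 (Cplx2), and Nsf, Napa and Napb, which recycle SNARE complexes, at 0.05, 0.10 and −0.01, none called. Snap29, a SNARE used in many membrane fusion steps outside the synapse, had 3 probe sets. At the dimmest, 1423355_at, signals were 6.22, 6.58 and 6.79 in WT and 5.94, 6.22 and 6.35 in HDAC4 KO arrays, which is a change of −0.35 on the log2 scale (SE 0.07, adjusted p = 0.0162). All 10 HDAC4 KO arrays were below the WT mean, and they overlapped with the WT group through WT 9 and WT 10, the lowest of that group. These signals are near the array median, and at the brightest probe set, 1423356_at, the groups lay on top of each other (8.02 to 8.34 in WT, 8.07 to 8.31 in HDAC4 KO; log2 fold change 0.01, adjusted p = 0.905).

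In the group of Rab3 proteins and the active zone (9 genes, 23 probe sets), 2 probe sets of Rab3c were lower. Rab3c is a small GTPase carried on synaptic vesicles. At its brightest probe set, 1435047_at, signals were 11.62, 11.70 and 11.75 in WT and 11.58, 11.63 and 11.76 in HDAC4 KO arrays (log2 fold change −0.04, SE 0.03, adjusted p = 0.486). At 1449494_at they were 9.36, 9.62 and 9.80 in WT and 8.97, 9.28 and 9.51 in HDAC4 KO arrays, so that the log2 fold change was −0.37 with an SE of 0.07 (adjusted p = 0.0162). Here 9 of 10 HDAC4 KO arrays were below the lowest WT array, HDAC4 KO 1 being the exception. At 1432432_a_at signals were 8.79, 9.28 and 9.58 in WT and 8.54, 8.86 and 9.35 in HDAC4 KO arrays, so that the log2 fold change was −0.40 with an SE of 0.10 (adjusted p = 0.0427). That second call was lost without any one of 14 arrays (adjusted p up to 0.0827; it passed without WT 8, 9 or 10 or HDAC4 KO 1, 2 or 3), and the remaining Rab3c probe sets, at −0.12 and −0.01, were not called.

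Rab3a and Rab3b stood at −0.01 and 0.09. No scaffold or priming factor of the active zone was called. Bassoon (Bsn) had 0.11 (SE 0.04, adjusted p = 0.0923), Piccolo (Pclo) 0.11 (adjusted p = 0.184) and Unc13a, or Munc13-1, 0.07 (adjusted p = 0.188), each with all 10 HDAC4 KO arrays above the WT mean. Rims1 had 0.08 (adjusted p = 0.170) and Erc2 0.01 (adjusted p = 0.917), and dimmer probe sets of Pclo and Rims1 stood as low as −0.19 and −0.03. Rims2, a scaffold that binds Rab3 and calcium channels, had −0.01 at its brightest probe set (10.19, 10.27 and 10.43 in WT, 10.20, 10.30 and 10.39 in HDAC4 KO), and 0.29 (SE 0.09, adjusted p = 0.0792) at 1443215_at, where signals were 5.77, 5.95 and 6.26 in WT and 5.94, 6.22 and 6.65 in HDAC4 KO arrays. The median of either group at 1443215_at was below the array median, and the groups overlapped.

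The vesicular transporters (3 genes, 7 probe sets) held the largest changes among the members in either direction. Slc17a6 encodes VGLUT2, the glutamate transporter of subcortical neurons and of much of the newborn brain. Its brightest probe set, 1428379_at, gave 11.66, 11.75 and 11.85 in WT and 11.64, 11.73 and 11.84 in HDAC4 KO arrays (log2 fold change −0.03, SE 0.03, 95% interval −0.10 to 0.03, adjusted p = 0.594). Its other probe set, 1418610_at, gave 10.05, 10.31 and 10.46 in WT and 9.21, 9.90 and 10.12 in HDAC4 KO arrays. The signal of 1418610_at thus fell by 30.2% (log2 fold change −0.52, SE 0.10, adjusted p = 0.0182), and 9 of 10 HDAC4 KO arrays were below the lowest WT array. Relative to the WT mean HDAC4 KO 8, 9 and 10 stood at −0.80, −1.08 and −1.02, and the other 7 between −0.46 and −0.17.

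Slc17a7, or VGLUT1, the transporter that gains ground in cortex and hippocampus after birth, ran from 6.91 to 7.36 (median 7.08) in WT and from 7.03 to 7.98 (median 7.32) in HDAC4 KO arrays. Its log2 fold change of 0.33 (SE 0.11) was the highest among the brightest probe sets, yet with a wide spread in HDAC4 KO arrays (SD 0.33, n = 10) it did not pass (adjusted p = 0.108). Slc32a1, or VGAT, which loads GABA and glycine, had 0.07 (SE 0.04, adjusted p = 0.340). Of the neurexins, presynaptic adhesion proteins, Nrxn2 had 0.12 (SE 0.03, adjusted p = 0.0572), from 11.27 to 11.48 in WT and from 11.34 to 11.57 in HDAC4 KO arrays, and Nrxn3 had 0.02 (adjusted p = 0.712). For the endocytic genes the values were 0.06 in Dnm1 (adjusted p = 0.455) and 0.00 in Amph (adjusted p = 0.965).

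**Figure D2:**
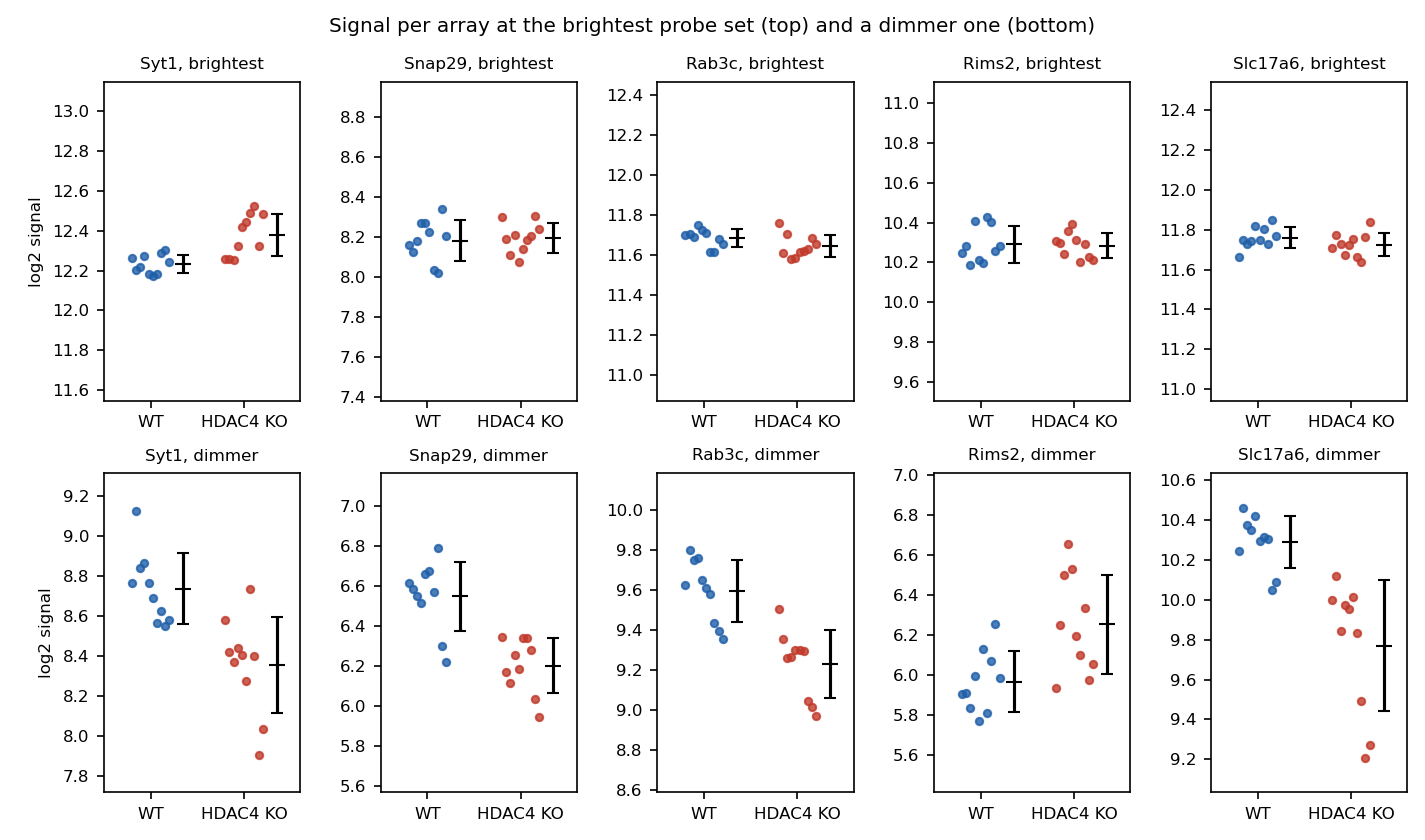
Log2 signal of each array for Syt1, Snap29, Rab3c, Rims2 and Slc17a6 at the brightest probe set (top) and at 1 dimmer probe set (bottom; 1431191_a_at, 1423355_at, 1449494_at, 1443215_at and 1418610_at), with WT in blue, HDAC4 KO in red, points from left to right by replicate number, bars for mean ± SD (n = 10) and 1.6 log2 units in every panel. Top panels overlap widely except for Syt1, and in the bottom row HDAC4 KO arrays lie lower (9 of 10 below the lowest WT array in Slc17a6 and Rab3c) except for Rims2, where they lie higher.

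The disagreement between probe sets of a gene was tested directly, as the difference in change between each dimmer probe set and the brightest one within the same array. Of the 61 dimmer probe sets 7 differed (11.5%), 6 with a lower and 1 with a higher value, and of all 16752 such pairs on the array 5.05% differed, 624 lower and 222 higher. Being lower in its own right was found for 5 of the 61 (8.20%) and for 1.81% of all probe sets other than the brightest. The difference was −0.53 (SE 0.10, adjusted p = 0.00876) for Syt1 at 1431191_a_at and −0.45 (adjusted p = 0.0125) at 1421990_at. For Slc17a6 it was −0.48 (adjusted p = 0.0192), for Snap29 at 1423355_at −0.36 (adjusted p = 0.0224), and for Rab3c −0.33 at 1449494_at (adjusted p = 0.0125) and −0.36 at 1432432_a_at (adjusted p = 0.0335). Rims2 at 1443215_at went the other way, by 0.29 (adjusted p = 0.0458). Rph3a had the second largest difference in size, −0.51 (SE 0.15), which did not pass (adjusted p = 0.0555). Across the 61, the dimmer probe sets had a median change of −0.01, where the brightest of the 39 genes had 0.07. Of the 61, 32 (52.5%) were below 0, against 53.4% of all such probe sets. The difference from the brightest was lower in 13 and higher in 4 of the 61 at an unadjusted p under 0.05 (limma). Over all 16752 pairs it was lower in 2431 and higher in 1210 by that measure. Which transcript ends or isoforms each probe set reads is not given in the files used here.

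**Figure D3:**
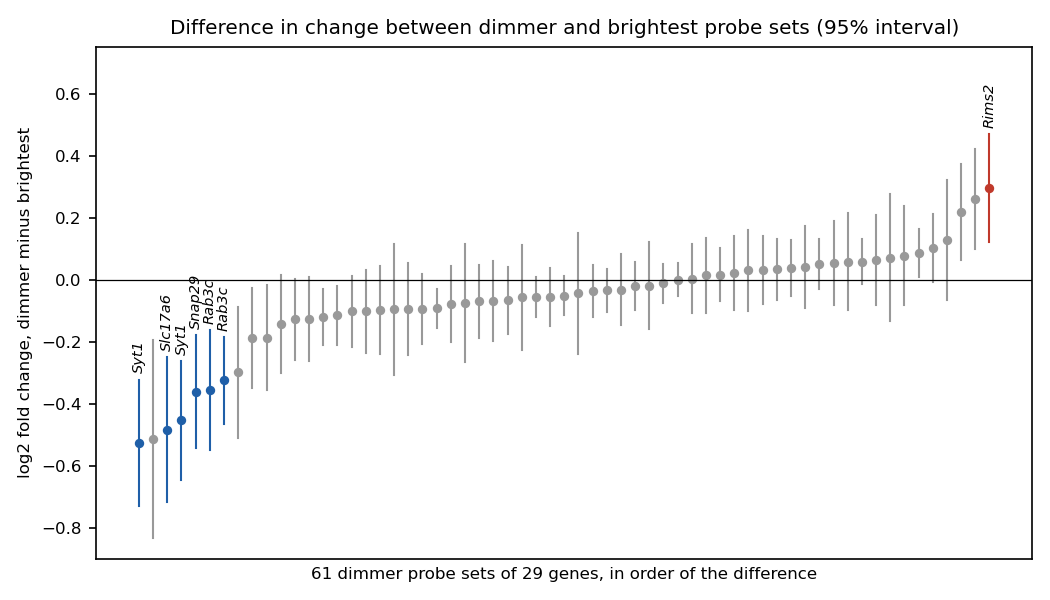
Log2 fold change of each of the 61 dimmer probe sets minus that of the brightest probe set of the same gene, in order, with 95% intervals. The 6 blue points (Syt1, Slc17a6, Rab3c and Snap29) lie between −0.53 and −0.33 and the red point (Rims2) at 0.29, while the other 54, in grey, did not pass.

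The arrays with the lowest signal at the 5 lower probe sets were largely shared. In every one of them HDAC4 KO 9 was the lowest or next to lowest of its group, HDAC4 KO 10 was so in all but Rab3c at 1432432_a_at, and WT 9 or WT 10 was the lowest WT array. HDAC4 KO 8, 9 and 10 also had 3′ to 5′ control differences of 0.24, 0.24 and 0.26, above the highest WT value of 0.23, and HDAC4 KO 3 had 0.25. Among the WT arrays, WT 9 and WT 10 had 0.20 and 0.21. The highest WT values, 0.22 to 0.23, were in WT 4, 6 and 7, which were not the lowest WT arrays at these probe sets. What underlies the lower signals was not tested. Fitted together with this measure, 0 of the 100 probe sets were called by limma, and 23 higher and 20 lower were called over the whole array. Slc17a6 then stood at −0.39 (adjusted p = 0.0841), Rab3c at −0.30 and −0.32 (adjusted p = 0.0823 and 0.178), Snap29 at −0.29 (adjusted p = 0.0827), Syt1 at −0.29 (adjusted p = 0.141) and Sytl2 at 0.26 (adjusted p = 0.142). Of the differences between probe sets, that of Syt1 at 1431191_a_at still passed, at −0.43 (adjusted p = 0.0462).

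Without the arrays numbered 9 and 10 in both genotypes the 5 lower probe sets were called again, Slc17a6 at −0.44 (adjusted p = 0.00420), Rab3c at −0.36 and −0.43 (adjusted p = 0.00570 and 0.0177), Snap29 at −0.37 (adjusted p = 0.000537) and Syt1 at −0.33 (adjusted p = 0.0316). These numbers were chosen after seeing the data. Leaving them out also removes the lowest WT array of each of these probe sets and so narrows the spread, so these calls are no independent check. Without the 4 arrays listed above for their Hdac4 signal or sex-linked genes, Rab3c at 1449494_at (−0.38, adjusted p = 0.0343) and Snap29 (−0.30, adjusted p = 0.0404) were called. Slc17a6 then stood at −0.48 (adjusted p = 0.0519), Syt1 at −0.38 (adjusted p = 0.0778) and Rab3c at 1432432_a_at at −0.43 (adjusted p = 0.0879).

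**Figure D4:**
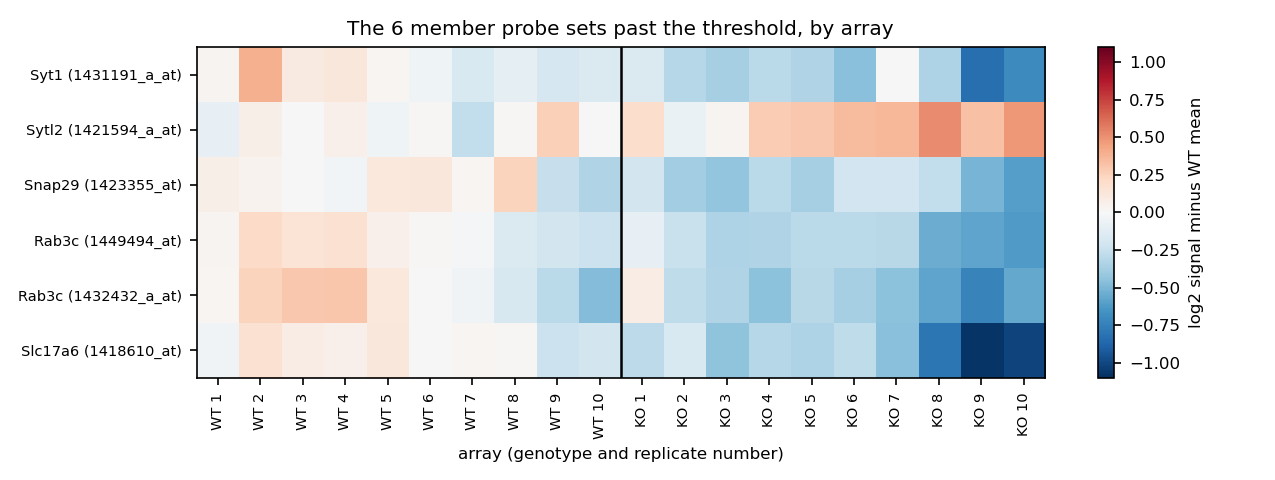
Log2 signal minus the WT mean in each of the 20 arrays for the 6 probe sets past the threshold (blue, below the WT mean; red, above). In the 5 lower probe sets HDAC4 KO 9 is the deepest or next to deepest blue, down to −1.08 in Slc17a6, and among the WT arrays numbers 9 and 10 are blue, at −0.16 to −0.47.

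By labelled sex, the change differed between males and females for none of the 100 probe sets (limma interaction; 3 at an unadjusted p under 0.05), nor for any probe set on the array (0%; 2409 at an unadjusted p under 0.05). Snap29 at 1423355_at was one of the 3, at −0.50 (SE 0.08, adjusted p = 0.0329) in males and −0.20 (SE 0.08, adjusted p = 0.401) in females, an interaction that did not pass (adjusted p = 0.917). Slc17a6 at 1418610_at stood at −0.58 in males and −0.46 in females, and Sytl2 at 0.26 and 0.29. There were 5 arrays per sex and genotype, WT 5 and WT 9 went against their sex label and HDAC4 KO 10 carried signal of both sexes, so these values are imprecise.

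Other genes of the same pathway, a list of 99, were looked at in the same way, and 90 of them were measured. The list was drawn up from general knowledge, with earlier results of these data known. At the brightest probe set 6 of the 90 were higher (6.67%) and 0 lower by limma, beside the 1.96% of all genes called in either direction. At an unadjusted p under 0.05, 28 were higher (31.1%) and 2 lower (2.22%), against 12.8% and 6.19% of all genes. The median log2 fold change was 0.05, and 71 of 90 (78.9%) were above 0. Syt7, a calcium sensor of asynchronous release and vesicle replenishment, ran from 11.18 to 11.41 in WT and from 11.36 to 11.58 in HDAC4 KO arrays, higher by 0.20 (log2; SE 0.04, adjusted p = 0.0143). Of the listed subunits of the vacuolar ATPase, the proton pump that powers transmitter loading, Atp6v0a1 was higher by 0.18 (adjusted p = 0.0198) and Atp6v1b2 by 0.15 (adjusted p = 0.0435). Atp6v0d1, at 0.05, was not called (adjusted p = 0.482). The other genes called were Cask, a scaffold that binds neurexins (0.14, adjusted p = 0.0198), Scamp5, a vesicle membrane protein (0.15, adjusted p = 0.0207), and Stxbp6, a syntaxin-binding protein (0.12, adjusted p = 0.0424). In 34 alternatives Atp6v1b2 was called 15 times and Stxbp6 13 times, and Syt7, Atp6v0a1, Cask and Scamp5 30 times or more. All 10 HDAC4 KO arrays were above the WT mean in each of these 6 genes, and the groups overlapped in each. When the 3′ to 5′ measure entered the fit, 0 of the 6 calls were left, and without the 4 arrays in doubt 3 of the 90 genes were called.

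The next by p were Rimbp2 (0.15, adjusted p = 0.102), Ppfia3 (0.12, adjusted p = 0.107), Ptprs (0.07, adjusted p = 0.119) and Unc13c (0.14, adjusted p = 0.123), all of the active zone or its receptors and none called. Among the 140 dimmer probe sets of these genes, Itsn2 (−0.48, adjusted p = 0.0442) and Unc13c (−0.54, adjusted p = 0.0179) were lower and Syt7 (0.12, adjusted p = 0.0236) and Ppfia4 (0.16, adjusted p = 0.0435) higher, and 20 (14.3%) differed from the brightest of their gene, 19 of them with a lower value, beside the 5.05% of all pairs. In Unc13c, a Munc13 of cerebellar neurons, the brightest and that dimmer probe set thus had values of opposite sign, the first of which did not pass.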

How the data were processed

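RNA from 20 P3 whole brains was labelled with the GeneChip 3′ IVT Express kit and hybridized to Affymetrix mouse genome arrays. The authors deposited 1 log2 signal per probe set and array. How probes were summarised and arrays normalized is not given in the labels or methods, and the array medians lie between 6.26 and 6.32. Chips of poor quality by their normalized unscaled standard error had been dropped. Such arrays have no read depth, so precision depends on how many there were. Nothing says whether the arrays were run in batches.

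Of 45101 probe sets, 64 controls were left out. Symbols came from the platform annotation: 34945 probe sets carry 1 symbol, 932 several and 9160 none. All of them were tested, while members, gene lists, brightest probe sets and pairs were taken from the first only. No coordinates of probe sets were used, and promoter windows carry those of RefSeq GRCm38.p6.

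Genotypes were compared with limma 3.58.1 (lmFit, eBayes) in R 4.3.3, without covariates, on the deposited log2 values, and p-values were adjusted by Benjamini-Hochberg over all 45037 probe sets. The test of pairs used the difference between a probe set and the brightest of its gene in each array, over 16752 pairs. The interaction came from 4 groups of genotype and labelled sex. The scripts were tested on simulated data. The methods' t-test, other normalizations, covariates, a replicate block and arrays left out in turn were run as alternatives.

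Members, lists and tests were chosen with earlier results of these data known. Values per array are given for probe sets that passed or differed from the brightest and for the brightest of those genes; the other members are given by change, with the textbook members always named. Of other presynaptic genes, those that passed and the 4 next by p are named. Dimmer ones that passed, Syn2, Syn3, Syp, Slc17a7, Nrxn2, Rph3a and Atp6v0d1 were given in more detail after their values were seen.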

Additional observations from a re-analysis of the deposited data

Results flagged for a closer look

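In 46 probe sets (the brightest of each gene and the dimmer ones that were called or differed) each group of 10 arrays was examined for an array set apart, defined as a gap to its neighbour larger than Dixon's 95% limit as a share of the range of the group. Of 92 groups 5 held one, and chance gives about 1 in 20 groups. Vamp1 was lowest in WT 1, at 7.65 with the next array at 8.35 (gap over range 0.614), and Snap25 was lowest in WT 10, at 12.66 (0.585). Syt1 at 1421990_at was lowest in HDAC4 KO 9, at 7.38 with the next at 7.87 (0.545). Rph3a and Syt5 at their brightest probe sets were highest in WT 9, at 9.47 (0.542) and 9.16 (0.539), and WT 9 is an array in which Xist and Kdm5d disagree with the label.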

How the results depend on the processing

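No change reversed its direction past the threshold under any alternative. Set against 1 probe set higher, 5 lower, 1 gene called at its brightest probe set, 7 dimmer probe sets that differ and 6 other presynaptic genes, leaving out 1 array at a time gave 0 to 6, 3 to 6, 0 to 5, 5 to 10 and 4 to 7, and the interaction stayed at 0. The lower probe sets numbered 3 without WT 2, 3, 4 or 5 or HDAC4 KO 8 or 10, when Syt1 (adjusted p up to 0.0595) and Rab3c at 1432432_a_at were lost. Snap29 and Rab3c at 1449494_at were called in 33 of 34 alternatives, Slc17a6 in 32, Syt1 in 23, Rab3c at 1432432_a_at in 14 and Sytl2 in 12.

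The methods' t-test gave 2 higher and 2 genes at the brightest probe set (Syt1 and Nrxn2, with Sytl2 lost), and Welch's test 0 higher, 3 lower and 0 genes. With the 3′ to 5′ measure in the fit these became 0, 0 and 0, with 1 differing pair and 0 other genes; the cause was not tested. Leaving out dim probe sets (22603 tested) gave 4 higher, 8 lower and 5 genes. Trend and robust eBayes gave 3 higher and 4 genes, and array weights 4 and 4. With the most variable probe set per gene, 5 members and 3 other genes were called, and with the mean of probe sets 4 and 1.

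Over all probe sets, the replicate numbers pair few arrays (1 of 10 same-numbered pairs had a correlation above 0.1, from −0.15 to 0.16). At Rab3c 1449494_at, though, numbers 8, 9 and 10 were the lowest in both genotypes (9.44, 9.40 and 9.36 in WT, 9.05, 9.01 and 8.97 in HDAC4 KO). A fit with the replicate block gave 0 higher, 5 lower, 0 genes at the brightest and 8 differing pairs (Sytl2 lost, adjusted p = 0.0616). The SE fell from 0.07 to 0.04 for that Rab3c probe set and for Snap29, and from 0.10 to 0.07 for Slc17a6. What the numbers stand for is not given, and a trend along them was not tested.

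Chosen after seeing the data, leaving out WT 8 and HDAC4 KO 10 gave 0 higher, 3 lower, 0 genes, 4 pairs and 1 other gene, leaving out WT 5, WT 9 and HDAC4 KO 10 gave 0, 3 and 0 with 3 other genes, and leaving out all 4 gave 0, 2 and 0 with 3. Without numbers 9 and 10 of both genotypes 2 were higher. Probe sets near or below the array median, such as those of Snap29 and Rims2, carry the least signal over background.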
